A study of Oryza sativa Indica Group with 12 samples.

Results

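OsC6, C4, RTS and LTP110-A are rice genes for small secreted proteins, and 3 of the 4 belong to the lipid transfer protein group. OsC6, C4 (also OsC4 or Osg4B) and RTS were taken by their array probe sets, and LTP110-A by the probe set that the probe-to-gene table pairs with its name, which gave 4 probe sets of the 57258 for rice on the array, or 4 of the 17905 genes that the tables pair with a probe set. Each of the 4 genes had 1 probe set, and none of the 4 carried the suffix by which the manufacturer marks probes shared between transcripts. The gene table lists LTP110-B as another name of LTP110-A, so that the names cannot be separated here. The rule named the genes and used no measured value, and the genes were proposed with earlier results of these data known.

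The samples were anthers of field-grown wild-type plants of the indica variety IR64, bulked over plants and with no treatment or transgene. The 4 stages were sorted by size and by nuclear staining: pre-meiotic anthers (PMA, 350 to 450 µm long), meiotic anthers (MA, 500 to 850 µm), anthers with single-celled pollen (SCP, 900 to 950 µm) and anthers with tri-nucleate pollen (TPA, 2000 to 2500 µm). Each stage had 3 Affymetrix Rice Genome arrays labelled as biological replicates, 12 in all. The MA arrays were run by another person than the other arrays, and what that may have added to the MA values cannot be told apart from the stage itself.

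The tapetum is the innermost layer of the anther wall, which feeds the developing microspores and supplies the precursors of the pollen wall, and it breaks down before the pollen is mature. Non-specific lipid transfer proteins are small secreted proteins held in shape by disulphide bridges, with a hollow that takes up a lipid, and those of the tapetum are thought to carry wall lipids towards the microspore surface. OsC6 is needed for normal orbicules and pollen wall in rice, RTS, known as a gene of the tapetum, is needed for male fertility, and the protein of LTP110 was described as an inhibitor of fungal growth.

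The sequences at hand for RTS are the primers with which the study amplified it in quantitative PCR, which show where another assay read this gene. The study names the gene, locus LOC_Os01g70440 on chromosome 1, as a member of the LEM1 family. Each is written 5′ to 3′, with 11 G or C bases of 20 in the forward primer and 7 of 22 in the reverse primer.
RTS forward: cgcacctacgtatgccacat
RTS reverse: ttcataatccactaatcgcatt

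Values are GC-RMA signals, background-corrected brightness on a linear scale, and the study's methods took a signal of 10 as the limit below which a gene counts as absent. Between 40.3% and 41.1% of the rice probe sets exceeded that limit on each array, and no pair of arrays was identical. Fold changes and adjusted p-values come from limma on log2 signals of all 12 arrays, with Benjamini-Hochberg adjustment over all 57258 probe sets, and a change was called at an adjusted p of 0.005 or less together with at least a 2-fold difference. The p-values measure the spread between bulked samples. The 5 tapetum markers (TDR, UDT1, CYP703A3, CYP704B2 and PTC1) summed to 357 to 632 on the PMA arrays, 15383 to 16269.5 in MA and 75338 to 83862 in SCP, but 88.2 to 139 in TPA. Not all 5 followed the sum, since UDT1 had its highest mean of 116 ± 55.6 in PMA (SD, n = 3) and PTC1 averaged 9.10 in TPA and 8.28 in MA, both below 10. CYP703A3, with a mean of 45341, and CYP704B2, with 25564, made up most of the SCP sum. TDR averaged 4133 in MA and 4311 in SCP, a difference that was not called. The 5 meiocyte markers summed to 8278 to 10025 on the PMA arrays, 4566 to 4904 in MA, and 179 to 431 in SCP against 90.3 to 142 in TPA. MEL1 made up most of that sum in PMA, with 57.1 in MA against 7716 in PMA, a called fall. OsRAD21-4 had 19.0 in MA against 157 in PMA, also called, and DMC1 had 457 against 569, not called. In the other direction, PAIR2 had 3558 in MA against 621 in PMA and ZEP1 632 in MA against 74.4 in PMA, of which the rise of ZEP1 was called. The 6 pollen markers could not be paired with a probe set here, so that no pollen marker was measured. In whole anthers, fewer cells of a type and less RNA per cell cannot be told apart.

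All 4 genes changed over the 4 stages, where 31.8% of all rice probe sets were called, and they did so with 3 kinds of profile. C4 was high in MA and SCP, OsC6 and LTP110-A had their highest signal in SCP, and RTS exceeded 10 in TPA alone. The adjusted p of the test over the 4 stages was 1.19e-07 for OsC6, 2.62e-07 for C4, 4.96e-06 for RTS and 7.02e-06 for LTP110-A. The distance between the highest and the lowest stage was 11.53 for OsC6, 10.89 for C4, 8.85 for RTS and 4.78 for LTP110-A on the log2 scale.

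**Figure D1:**
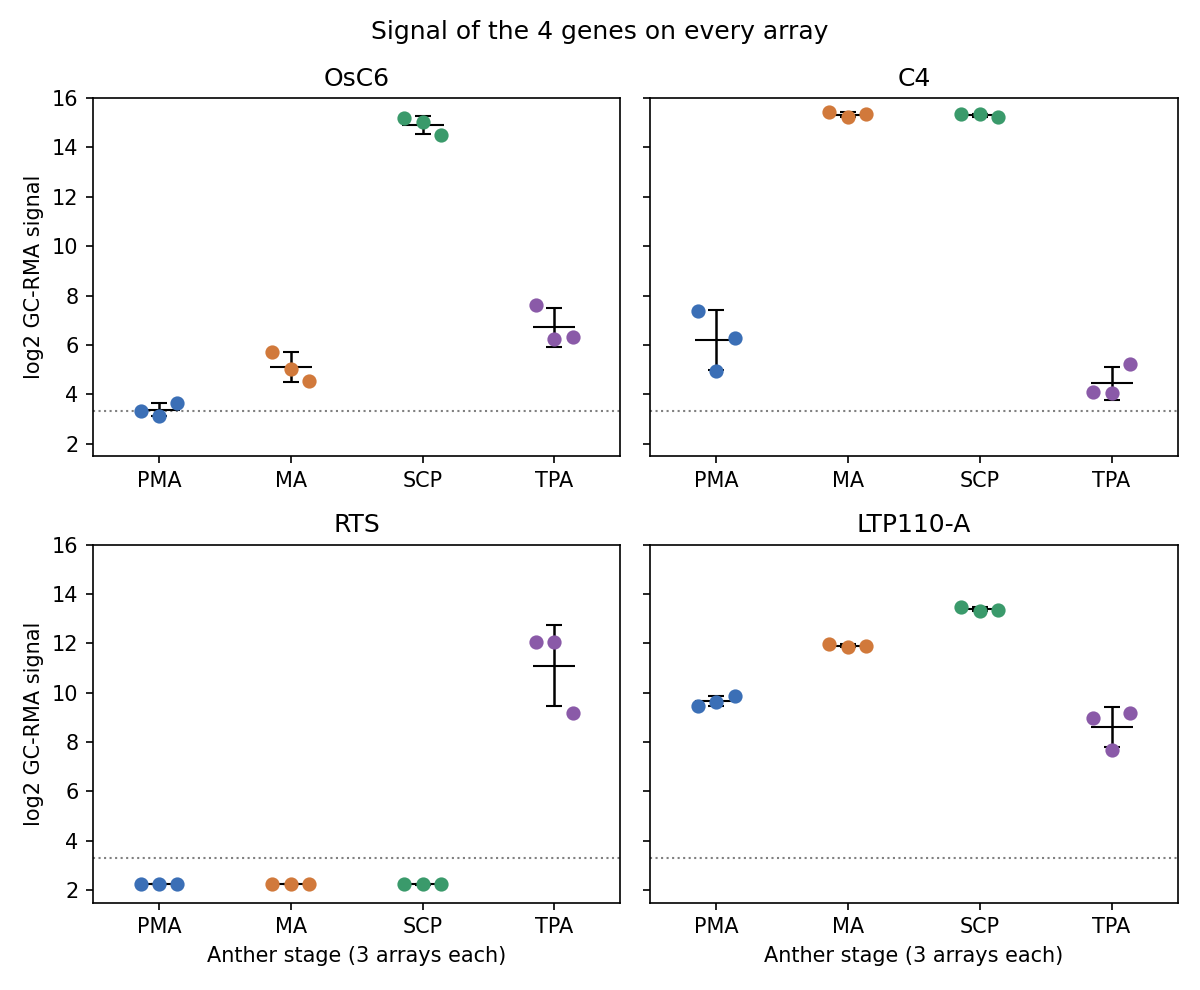
Signal of OsC6, C4, RTS and LTP110-A on each of the 12 arrays, as log2 of the GC-RMA signal against anther stage. Points are arrays, the horizontal bar is the mean and the error bar 1 SD of the 3 log2 values, and the dotted line is a signal of 10. C4 is high in MA and SCP, OsC6 is high in SCP, LTP110-A is highest in SCP, and RTS exceeds the line in TPA only, with 1 of its 3 arrays at 587.

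C4, a tapetal gene for a lipid transfer protein, rose in MA, was as high in SCP and was nearly off in TPA. Its signal was 167, 30.9 and 78.0 on the PMA arrays, 44299, 38068 and 41579 on the MA arrays, 41392, 41559 and 38469 on the SCP arrays, and 16.8, 16.6 and 36.9 on the TPA arrays. Every MA and SCP array lay far above every PMA and TPA array, and the MA and SCP arrays overlapped, as did the TPA and PMA arrays.

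C4 averaged 41315 ± 3124 in MA and 92.1 ± 69.3 in PMA (SD, n = 3 each), a log2 fold change of 9.12 with an adjusted p of 8.18e-06 (standard error 0.55) or 558-fold. It was 1 of 2 genes of the 4 that rose in MA against PMA, where 3.31% of all probe sets were called higher. Between SCP and MA the difference was -0.03 (95% interval -1.27 to 1.21, adjusted p = 0.99), an interval that leaves room for a change of more than 2-fold in either direction. On these 6 arrays C4 stood at 80.1% to 99.6% of the highest rice signal of its array, and a limit of the scale near that level was not tested.

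C4 then fell in TPA, with 23.4 ± 11.7 in TPA against 40473 ± 1738 in SCP, a log2 fold change of -10.86 with an adjusted p of 3.22e-07 (standard error 0.55). Its level in TPA and in PMA differed by -1.76 on the log2 scale (95% interval -3.00 to -0.52, adjusted p = 0.027), which was not called. Without PMA replicate 2, the lowest of the PMA arrays, that difference was -2.39 (adjusted p = 0.0018) and was called. With an equal-variance test of each probe set on its own, the rise in MA and the higher level in SCP than in PMA missed the limit, at adjusted p = 0.0061 and 0.0051.

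OsC6, whose protein is found around the tapetum and the microspores and binds lipid, had its large rise in SCP, a stage after that of C4. Its signal was between 8.76 and 12.7 on the 3 PMA arrays, 53.0, 32.7 and 23.4 on the MA arrays, 37559, 33306 and 23094 on the SCP arrays, and 199, 74.8 and 79.3 on the TPA arrays. No array of a stage overlapped with an array of another stage. All 3 SCP arrays were at 23094 or more, while the PMA arrays lay around the limit of 10 at which a gene counts as absent.

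In SCP the gene averaged 31319 ± 7434, against 36.4 ± 15.1 in MA (SD, n = 3 each), a log2 fold change of 9.80 with an adjusted p of 6.00e-07 (standard error 0.43) or 893-fold. OsC6 was the single gene of the 4 called in SCP against MA, where 3.85% of all probe sets were called higher. The signal of SCP replicate 3, at 23094, was the lowest of the SCP arrays, and without that array the log2 fold change was 10.01.

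OsC6 fell in TPA and stayed above its PMA level. TPA averaged 118 ± 70.2, against 31319 ± 7434 in SCP, a log2 fold change of -8.18 with an adjusted p of 4.06e-07 (standard error 0.43), in a comparison where 14.9% of all probe sets were called lower. The TPA level exceeded that of PMA by 3.35 on the log2 scale (95% interval 2.38 to 4.32, adjusted p = 1.60e-04), and 8.58% of all probe sets were called higher in that comparison. That call was lost with an equal-variance test (adjusted p = 0.013) and with the TPA and PMA arrays alone (adjusted p = 0.0051).

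The smaller steps of OsC6 did not pass. MA exceeded PMA by 1.73 on the log2 scale (95% interval 0.76 to 2.70, adjusted p = 0.022), with each MA array above each PMA array. TPA exceeded MA by 1.62 (95% interval 0.65 to 2.59, adjusted p = 0.013), again without overlap. The difference between TPA and MA was called after the arrays were set to a common median (2.27, adjusted p = 2.72e-04).

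LTP110-A had a signal at every stage and changed over a smaller range than the other genes. The PMA arrays gave 705, 797 and 946, the MA arrays 4065, 3722 and 3759, the SCP arrays 11283, 10153 and 10409.7, and the TPA arrays 497, 203 and 572. The arrays of the 4 stages did not overlap, and the means ran in the order SCP, MA, PMA and TPA, of which the neighbours SCP and MA, and PMA and TPA, did not differ by a call.

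LTP110-A averaged 3849 ± 188 in MA and 816 ± 121 in PMA (SD, n = 3 each), a log2 fold change of 2.25 with an adjusted p of 0.0016 (standard error 0.33). The step was kept in 7 of the 12 fits that left out an array. It missed the limit without MA replicate 1, 2 or 3 or PMA replicate 1 or 2, with adjusted p-values up to 0.0085 and log2 fold changes of 2.15 to 2.27.

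The next step, SCP over MA, was 1.46 on the log2 scale (95% interval 0.71 to 2.21, adjusted p = 0.013) and was not called, although each SCP array exceeded each MA array. It was called without TPA replicate 2, the lowest of the TPA arrays (adjusted p = 4.50e-05). It was also called with the SCP and MA arrays alone (adjusted p = 1.61e-04).

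Over both steps LTP110-A rose in SCP against PMA by 3.71 with an adjusted p of 4.50e-05 (standard error 0.33), as did OsC6 by 11.53 and C4 by 9.10. These 3 of the 4 genes compare with 5.18% of all probe sets called higher in SCP against PMA. LTP110-A fell in TPA, where it averaged 424 ± 195 against 10615 ± 592 in SCP, a log2 fold change of -4.78 with an adjusted p of 2.85e-06 (standard error 0.33). The TPA level lay below that of PMA by a difference of -1.07 (95% interval -1.82 to -0.32, adjusted p = 0.027), which was not called.

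RTS had its signal in TPA, where the 3 lipid transfer protein genes fell. Its signal was between 4.71 and 4.82 on all 9 arrays of PMA, MA and SCP, below the limit of 10, and 4240.4, 4195 and 587 on the TPA arrays. TPA replicates 1 and 2 were close to each other and TPA replicate 3 was lower, yet all 3 lay far above the other 9 arrays.

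RTS averaged 3007 ± 2096 in TPA and 4.74 ± 0.0439 in SCP (SD, n = 3 each), a log2 fold change of 8.85 with an adjusted p of 4.02e-06 (standard error 0.64), in a comparison where 8.21% of all probe sets were called higher. Since the earlier stages sat at the bottom of the scale, the fold depends on that bottom, and with signals under 10 set to 10 the TPA level was 219-fold higher. Without TPA replicate 3 the log2 fold change from SCP was 9.80. TPA exceeded MA by 8.84 (adjusted p = 3.78e-06), where 8.26% of all probe sets were called higher, and PMA by 8.83 (adjusted p = 3.42e-06).

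Among the 3 earlier stages RTS was below the limit throughout, and the differences between them were -0.02 to -0.01 on the log2 scale. These are differences between arrays at the bottom of the scale and carry no order. The 95% interval of SCP minus MA was -1.47 to 1.45, since the spread of the TPA arrays enters the shared error. With an equal-variance test the rise in TPA against PMA missed the limit, at adjusted p = 0.0057.

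The sum of the 5 tapetum markers was lowest in TPA, where RTS was high, and their part in the RTS signal was not tested. Of those markers, CYP703A3 stood at 10.4 or less and PTC1 at 9.05 to 9.19 on the TPA arrays, both near the limit of 10, while TDR stood at 50.7 to 102. TPA replicate 3, with the lowest RTS signal, had the lowest TDR and the highest UDT1, CYP703A3, CYP704B2 and PTC1 signals of the TPA arrays, the last 4 all near or below 10 there. OsC6, at 74.8 to 199, and LTP110-A, at 203 to 572, were measured above 10 on the same arrays.

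**Figure D2:**
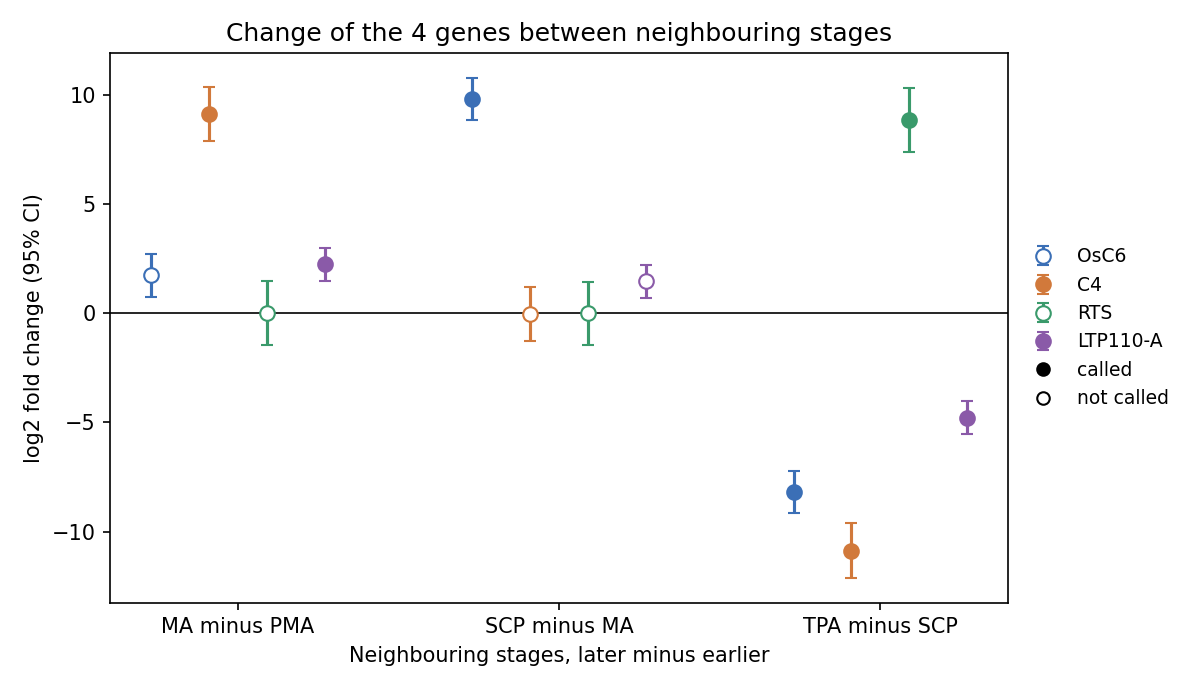
Log2 fold change of each gene between neighbouring stages, later minus earlier, with the 95% interval from limma. Filled points were called and open points were not. C4 rises by 9.12 in MA, OsC6 by 9.80 in SCP and RTS by 8.85 in TPA, and OsC6, C4 and LTP110-A all fall in TPA.

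Side by side, rises were called at 3 steps. In MA against PMA C4 and LTP110-A rose, in SCP against MA OsC6 rose and LTP110-A had its difference of 1.46 that missed the limit, and in TPA against SCP RTS rose and the other 3 fell. Differences between genes in these steps were not tested. In TPA against MA, C4 fell by 10.89 (adjusted p = 3.07e-07) and LTP110-A fell by 3.31 (adjusted p = 3.21e-05), beside 15.7% of all probe sets called lower. The fall of LTP110-A missed the limit with an equal-variance test (adjusted p = 0.0095).

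Over the 12 arrays, which share their stages, Pearson's r of log2 signals was 0.94 between C4 and LTP110-A, 0.68 between OsC6 and LTP110-A, and 0.52 between OsC6 and C4. RTS had an r of -0.10 with OsC6, -0.67 with C4 and -0.70 with LTP110-A. These values describe the profiles and were given no test.

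The scale of TPA bears on these comparisons. Setting every array to a common median over expressed probe sets moved the TPA arrays by 0.50 on the log2 scale and those of the other stages by -0.23 to -0.11. In TPA against SCP 35.5% of the calls over all probe sets were higher as deposited, and 57.4% with the common median. The 4 genes kept their directions and calls in that comparison, at -7.57 for OsC6, -10.25 for C4, 9.46 for RTS and -4.16 for LTP110-A.

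Beside the 4 genes, 16 other lipid transfer protein genes were measured, of which 4 were found by their gene-table names and 12 through the study's supplementary lists. Of those 12, 7 were in a list chosen for expression in pollen mother cells against seedlings and mature pollen. The other 5 were only in the list that the study chose as differential on these arrays. A gene in both lists was counted among the 7, so that some of the 7 may also have been chosen on these arrays. The calls and the direction of these 12 are thus no independent evidence. LTP2-A had no probe set. For LTPL9 and LTPL45 the 2 annotations used here give different chromosomes, so that these names are uncertain, and the probe sets of LTP, LTP2-B, LTPL1 (LOC_Os03g24300) and LTPL94 carry a suffix for probes shared with other transcripts.

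Of the 16, 13 were called over the 4 stages, beside 31.8% of all probe sets. They were 2 of the 4 found by name, 6 of the 7 from the pollen mother cell list and 5 of the 5 from the differential list. The last 5 had been chosen as differential on these arrays, so that the count of 13 is no measure of the family. The 3 that were not called, named after their values were seen, were OsLTPL1, LTP2-B and LTPL55, and LTPL55 lay below 10 on all 12 arrays. Counted by the stage of the highest mean, PMA was the highest for 1 gene, MA for 5, SCP for 3 and TPA for 7. These include LTPL55 in MA, whose order of stages is that of arrays below 10, and the uncalled OsLTPL1 and LTP2-B in TPA, whose TPA and MA arrays overlapped.

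In MA against PMA 3 of the 16 rose, beside 3.31% of all probe sets called higher. All 3 were among the 7 from the pollen mother cell list, and 0 of the 4 found by name rose. The median log2 fold change of the 16 was 1.58 against 0.00 over all probe sets. A higher count of 7 was called with a common median, where 2262 of all 57258 probe sets were called higher. Among probe sets with a mean over 10, which leave out LTPL55, 8 were called higher, beside 2338 of 28630 probe sets. In SCP against MA 1 rose and 4 fell, with a median of -0.11 against -0.01. Of all probe sets, 3.85% were called higher and 4.47% lower. In TPA against SCP 3 rose and 6 fell, with a median of 0.03 against 0.04, beside 8.21% of all probe sets called higher and 14.9% lower. These calls were 5 of the 5 from the differential list, 4 of the 7 from the pollen mother cell list and 0 of the 4 found by name. They thus came from the chosen lists alone. With a common median 5 rose in TPA against SCP, where 8384 of 57258 probe sets were called higher. The lower counts went down to 2 in SCP against MA and to 2 in TPA against SCP with an equal-variance test. That test called 1941 and 3946 of 57258 probe sets lower in these comparisons.

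LTPL45 was, like C4, high in MA and SCP, with 1131, 15.9 and 612 in PMA, 27010.4, 23840.1 and 29689 in MA, 30469, 31323 and 31811 in SCP, and 16.9, 22.0 and 12.8 in TPA. Its PMA arrays were spread widely and none overlapped with MA or SCP. The fall in TPA was -10.86 on the log2 scale (adjusted p = 1.27e-04), while the step in MA, 6.91, was not called (adjusted p = 0.0062).

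LTPL104 and LTPL42 had, like OsC6 and LTP110-A, their highest mean in SCP. LTPL104 averaged 56.1 ± 14.8 on the PMA arrays, 589 ± 37.5 on the MA arrays, 3949.6 ± 867 on the SCP arrays, and 177 ± 143 on the TPA arrays, and its fall in TPA was -5.01 (adjusted p = 4.13e-04). The steps of LTPL104 in MA and in SCP, 3.42 and 2.72, were not called (adjusted p = 0.011 and 0.029), while SCP against PMA, 6.14, was called (adjusted p = 2.48e-04). LTPL42 was already at 1007 ± 707 in PMA, with 2525 ± 905 in SCP and 10.4 ± 4.17 in TPA, a change of -7.92 from SCP (adjusted p = 1.55e-06). The SCP arrays of LTPL42 overlapped with those of MA and of PMA, and neither difference was called (adjusted p = 0.42 and 0.066).

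A further group had its highest mean in MA. LTPL1 (LOC_Os03g24300) averaged 17928 ± 913 in MA and 189 ± 156 in PMA, a rise of 7.11 on the log2 scale (adjusted p = 0.0019). Its lower level in SCP, a change of -2.19 from MA, was not called (adjusted p = 0.24). LTPL70 averaged 4157 ± 351 in MA, against 34.8 ± 13.0 in PMA, and fell in SCP to 69.8 ± 39.4, a log2 fold change of -6.03 from MA (adjusted p = 4.51e-06).

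LTPL81 and LTPL94 were high before meiosis as well as in it. LTPL81 had 1578 ± 883 in PMA, 1955 ± 143 in MA and 5.20 ± 0.0489 in SCP, a change of -8.55 from MA (adjusted p = 1.61e-06) that was -7.61 with signals under 10 set to 10. LTPL94 had 10938 ± 1407 in PMA, 10377 ± 374 in MA and 185 ± 232 in SCP, a change of -6.63 from MA (adjusted p = 2.14e-04). In both genes the MA and PMA arrays overlapped.

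Like RTS, 3 of the 16 were called higher in TPA than in SCP, and they are LTPL9, LTPL154 and LTPL106. LTPL9 averaged 9724 ± 866 in TPA and 22.6 ± 10.6 in SCP, a log2 fold change of 8.89 (adjusted p = 4.22e-07), and LTPL154 averaged 894 ± 857 in TPA and 16.5 ± 1.47 in SCP, a change of 5.22 (adjusted p = 1.39e-04). LTPL106 averaged 238 in TPA and 4.35 in SCP, below 10, a change of 5.72 (adjusted p = 1.84e-08) that was 4.52 with signals under 10 set to 10. LTP reached 1897, 664 and 2607 in TPA, against 420.4, 396 and 366 in SCP, and nsLTP2 reached 169, 178 and 439 in TPA, against 88.1, 88.2 and 50.7 in SCP. Neither of these last steps was called, although the arrays did not overlap (adjusted p = 0.016 for LTP and 0.012 for nsLTP2).

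**Figure D3:**
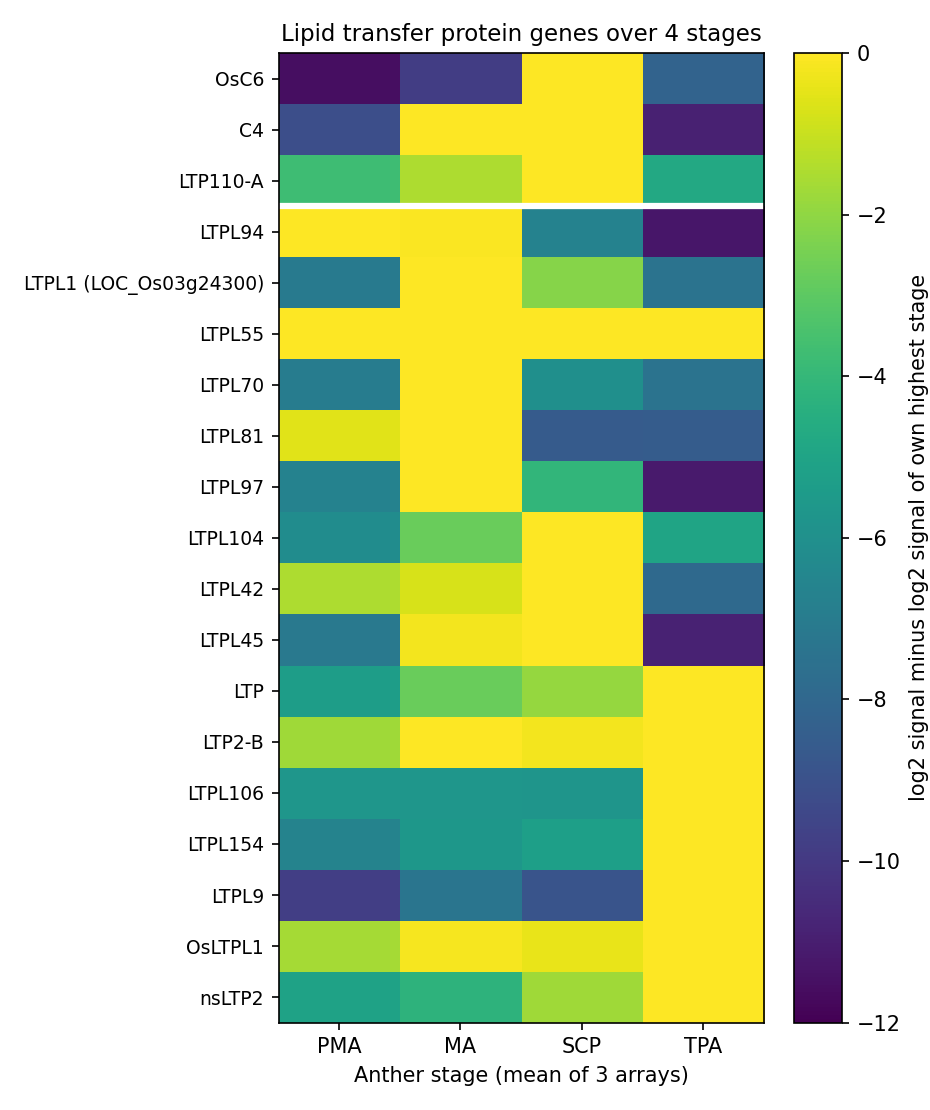
Mean log2 signal of OsC6, C4 and LTP110-A (above the white line) and of the 16 other measured lipid transfer protein genes in each stage, minus the mean log2 signal of the gene's own highest stage, as colour. The other genes are ordered by the stage of their highest mean, which is PMA for 1 gene, MA for 5 (LTPL55 below 10 throughout), SCP for 3 and TPA for 7.

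C4 has a lipid transfer protein gene as a near neighbour. In the gene table of the japonica assembly ASM3414082v1 the locus of LTPL97 (LOC_Os08g43240) lies on chromosome 8, 4 positions from C4 with 3 listed genes between them. The study also amplified LTPL97 in quantitative PCR, with the primers written here 5′ to 3′ as the marks of the compared neighbour.
LTPL97 forward: ggtgagaaagaccgggatca
LTPL97 reverse: ggctgcagaccaccacaat

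LTPL97 gave 308, 84.7 and 155 on the PMA arrays, 14705, 16699 and 18203 on the MA arrays, 648, 609 and 2239.5 on the SCP arrays, and 5.25, 14.9 and 5.08 on the TPA arrays. Like C4 it rose in MA, by 6.69 on the log2 scale with an adjusted p of 1.50e-04 (standard error 0.66). Unlike C4 it was called lower in SCP than in MA, by a log2 fold change of -4.10 with an adjusted p of 0.0020 (standard error 0.66), beside the interval of -1.27 to 1.21 for C4. The difference between the 2 changes was not tested.

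**Figure D4:**
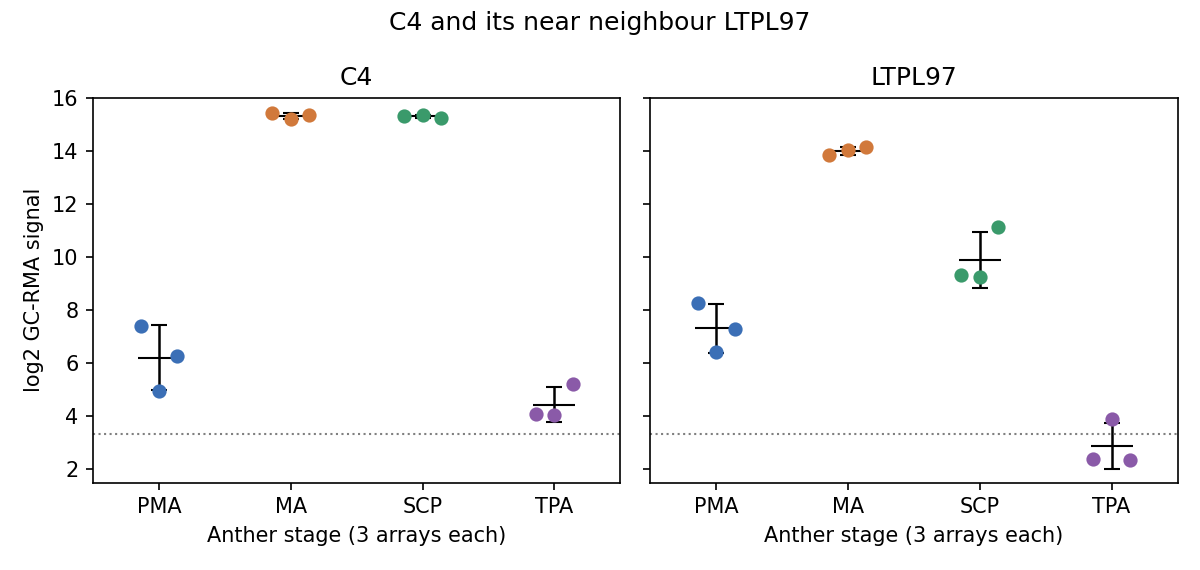
Log2 GC-RMA signal of C4 and of LTPL97 on each of the 12 arrays by stage, with the mean and 1 SD of the 3 log2 values and a dotted line at a signal of 10. Both are high in MA, C4 is at 38469 to 41559 in SCP, and LTPL97 is at 609 to 2239.5 there.

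Of the 10 genes listed around each of the 4 genes, 5 on either side, 6 had a probe set near OsC6, 4 near C4, 7 near RTS and 5 near LTP110-A. In MA against PMA, where 3.31% of all probe sets were called higher, 1 of the 4 neighbours of C4, which is LTPL97, 1 of the 7 of RTS and 2 of the 5 of LTP110-A rose. In SCP against MA 1 neighbour of OsC6 rose, beside 3.85% of all probe sets, and 1 each of C4 and RTS fell, beside 4.47%. In TPA against SCP 1 neighbour of OsC6, 2 of RTS and 1 of LTP110-A rose, beside 8.21%, and 2 each of OsC6, C4 and RTS fell, beside 14.9%. With so few neighbours measured these counts are a description. LTP2-A, the gene next to LTP110-A, was the family member without a probe set.

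The LEM1 family offers a counterpart to RTS. LEML3 was added after its values were seen. It was found in the list of genes chosen for expression in pollen mother cells against seedlings and mature pollen. Its high level in young anthers and its low level in TPA are thus no independent evidence. LEML3 gave 87.4, 29.8 and 51.6 on the PMA arrays, 5871, 5413 and 4973 on the MA arrays, 835, 837 and 2163 on the SCP arrays, and 6.34, 6.66 and 6.45 on the TPA arrays. LEML3 was below 10 on the 3 arrays where RTS was high, and above 10 on the 9 arrays where RTS was below it. LEML3 rose in MA by 6.72 (adjusted p = 1.32e-05) and fell in TPA, with a change of -7.47 from SCP (adjusted p = 9.20e-07) that was -6.84 with signals under 10 set to 10.

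**Figure D5:**
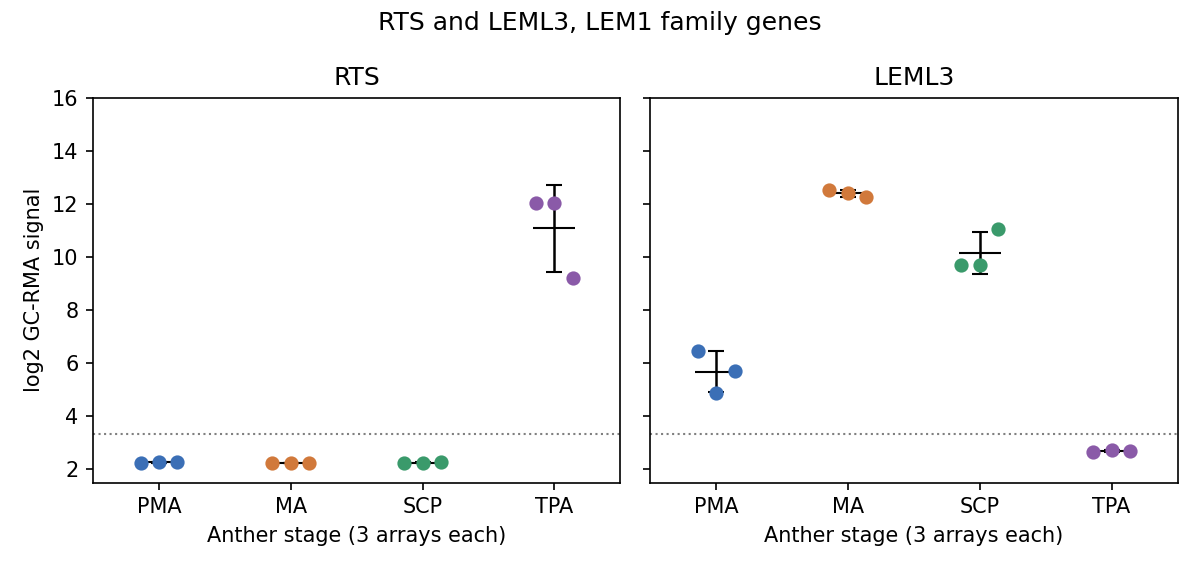
Log2 GC-RMA signal of RTS and LEML3, genes of the LEM1 family, on each of the 12 arrays by stage, with the mean and 1 SD of the 3 log2 values and a dotted line at a signal of 10. RTS lies above the line in TPA only and LEML3 in PMA, MA and SCP only.

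Replicates within a stage stood apart in these genes. Among the 6 genes called in SCP against MA (OsC6 and 5 of the 16), SCP replicate 3 was the SCP array nearest to MA in 6. These include LTPL81, whose SCP arrays lay at 5.15 to 5.24, below 10, so that their order carries no weight. Among the 5 genes called in MA against PMA (C4, LTP110-A and 3 of the 16), PMA replicate 1 was the nearest to MA in 4. PMA replicate 2 was the nearest in 0 and the farthest in 3. CAB2R, a chlorophyll-binding protein gene of green tissue, was at 1982 on SCP replicate 3, against 6986 and 6993 on the other SCP arrays. OsrbcS, the other green tissue marker measured, differed less, at 531 on SCP replicate 3 against 702 and 602. The part of green tissue in these values was not tested.

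The regulators of the tapetum gave a wider frame. All 10 listed genes were measured and called over the 4 stages, beside 31.8% of all probe sets. UDT1 and TDF1 were found only through the study's supplementary lists, which include genes chosen as differential on these arrays. The calls of UDT1 and TDF1 are thus no independent evidence. In MA against PMA 2 rose, beside 3.31% of all probe sets, and 1 fell, beside 3.03%. In SCP against MA 2 rose, beside 3.85%, and 3 fell, beside 4.47%. In TPA against SCP 1 rose, beside 8.21%, and 8 fell, beside 14.9%. The medians of the 10 genes were 0.47, -0.43 and -4.02 on the log2 scale. With an equal-variance test the first count of rises was 0, where 903 of 57258 probe sets were called higher. The last count of falls was 5 with that test, where 3946 were called lower.

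The largest rise in MA was that of TDF1, a MYB factor of early tapetum differentiation, with 5.16 (adjusted p = 0.0031), followed by TDR, a basic helix-loop-helix factor that acts in tapetum breakdown, with 4.86 (adjusted p = 2.24e-05). The largest in SCP was that of PTC1, a PHD-finger regulator of tapetum death and pollen development, with 8.57 (adjusted p = 1.37e-09). EAT1, a helix-loop-helix factor of tapetum death, rose by 3.37 in SCP (adjusted p = 0.0037) and had the largest fall in TPA, -9.67 (adjusted p = 1.40e-06).

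Of the 11 listed genes for sporopollenin and the pollen wall 5 were measured. All but CYP703A3 were found only through the study's supplementary lists. Those lists include genes chosen as differential on these arrays, so that the counts are no independent evidence. In MA against PMA 4 of the 5 rose, beside 3.31% of all probe sets, and in SCP against MA 4 rose, beside 3.85%. In TPA against SCP all 5 fell, beside 14.9%. The medians of the 5 genes were 5.29, 2.70 and -11.24. With an equal-variance test 2 rose in MA, where 903 of 57258 probe sets were called higher. CYP703A3, a cytochrome P450 that hydroxylates fatty acids for the pollen wall, rose by 6.56 in MA and by 2.54 in SCP, and OsPKS1, a polyketide synthase, by 5.29 and 4.16. Like LTP110-A these genes had their highest level in SCP after a step in MA, and the fall of OsPKS1 in TPA was -12.13 (adjusted p = 3.78e-09), or -11.51 with signals under 10 set to 10.

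Profiles most like each of the 4 genes were sought among 2554 probe sets of 1 named gene with a stage mean over 20, by Pearson's r of log2 signals over the 12 arrays. For C4 the nearest were OsSIP1;1, a small aquaporin, with an r of 0.99, AGO18, an argonaute (0.99), HRD1, a ubiquitin ligase (0.99), FH13, a formin (0.98), and the tapetum regulator TDR (0.98). TDR averaged 4133 ± 611 in MA and 4311 ± 766 in SCP, with 81.7 ± 27.4 in TPA against 151 ± 67.4 in PMA, and as in C4 the TPA and PMA arrays overlapped and did not differ by a call.

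For OsC6 the nearest were KIN7K, a kinesin, with an r of 0.99, the chalcone synthase gene CHS (0.98), HTAS (0.97), the 4-coumarate ligase gene 4CL4 (0.97) and CP1, a cysteine protease (0.96). Of these, CP1 averaged 1068 in SCP and 9.82 to 15.4 in the other stages, and CHS 628 in SCP and 9.44 to 23.1 in the others. KIN7K, HTAS and 4CL4 had a signal at every stage. They averaged 3144, 578 and 1771 in SCP, against 314 to 629, 237 to 332 and 498 to 686 in the other stages.

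For LTP110-A 3 of the 5 probe sets belonged to HPT1 (r of 0.99, 0.99 and 0.99), and the others to GAM1 (0.99), which is the gene named GAMYB in the list of tapetum regulators, and the glutaredoxin gene GRXS12 (0.99). GAMYB averaged 2591 ± 266 on the PMA arrays, 4296 ± 105 on the MA arrays, 5580.3 ± 536 on the SCP arrays, and 2205 ± 431 on the TPA arrays, and its TPA and PMA arrays overlapped. Its fall in TPA against SCP, -1.36 on the log2 scale, was called, and its steps in MA and in SCP were not.

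For RTS the nearest were BGLU38, a beta-glucosidase (1.00), osysl4, a yellow stripe-like transporter (1.00), the starch synthase gene GBSS-I (1.00), the potassium transporter gene HAK3 (1.00) and the monosaccharide transporter gene MST5 (0.99). All 5 had stage means of 4.83 to 7.17 in PMA, MA and SCP and of 542 to 7090 in TPA, so that these high values of r describe a single step between TPA and the other 9 arrays.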

How the data were processed

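Total RNA of bulked IR64 anthers was labelled and hybridised to Affymetrix Rice Genome arrays, 3 per stage. According to the methods the authors scanned the arrays with GCOS and normalized them with GC-RMA in ArrayAssist, together with arrays of other tissues. The deposited values are linear signal intensity per probe set, of which 57258 for rice were used and 123 controls left out. They were log2-transformed here and fitted with limma 3.58.1 (R 4.3.3), stage as the single term, with Benjamini-Hochberg adjustment. The limits followed the methods: an adjusted p of 0.005 or less and 2-fold. The fit was tested on simulated data for MA against PMA: of 50 probe sets changed by each log2 size, 30 were recovered at 1.5, 35 at 2, 44 at 3 and 46 at 5, with 0 false calls among 57058. The changed probe sets were drawn at random from all rice probe sets and do not stand for the spread of OsC6, C4, RTS and LTP110-A. Each fit had 8 residual degrees of freedom, and the 3 arrays of a stage limit the precision.

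Gene names came from the probe-to-gene table, the RefSeq gene table of ASM3414082v1 and loci in the study's supplementary lists, and no coordinates were converted. The members and gene lists were chosen with earlier results of these data known. Named genes were the 4 members, up to 12 lipid transfer protein genes called over the stages with the highest stage means (over 20), 2 to 4 list genes with the largest changes, and the 5 most similar named probe sets per member. Alternatives were an equal-variance test, the compared stages alone, a replicate term, quantile normalization, a common median, a filter and a floor at 10, a variance trend, all probe sets of the list and leaving out each array.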

Additional observations from a re-analysis of the deposited data

How the results depend on the processing

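The 28 results of the 4 genes were recomputed under 20 alternatives, and 537 of 556 values kept their direction and their side of the limits. With an equal-variance test the calls were lost for OsC6 in TPA against PMA (log2 fold change 3.35), C4 in MA against PMA (9.12) and SCP against PMA (9.10), RTS in TPA against PMA (8.83) and LTP110-A in TPA against MA (-3.31), and LTP110-A in SCP against MA (1.46) was gained. The compared stages alone lost OsC6 in TPA against PMA (3.35) and gained LTP110-A in SCP against MA (1.46). Probe sets over 10 gained OsC6 in TPA against MA (1.62) and LTP110-A in SCP against MA (1.46), and OsC6 in TPA against MA was gained with a common median (2.27) and quantile normalization (2.25). The cause of these shifts was not tested.

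Leaving out single arrays gave log2 fold changes of -2.39 to -1.17 for C4 in TPA against PMA, 2.15 to 2.36 for LTP110-A in MA against PMA, and 1.42 to 1.503 for LTP110-A in SCP against MA. It gave counts of lipid transfer protein genes of 2 to 5 for rises in MA and 0 to 2 for rises in SCP, and of tapetum regulators 1 to 2 for rises in MA and 1 to 2 for rises in SCP.

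Among counts, the lipid transfer protein genes that rose in MA numbered 7 with a common median, 8 among probe sets over 10 and 5 with a variance trend. Those that fell in SCP numbered 2 with an equal-variance test and 2 in the compared stages alone, those that rose in TPA 5 with a common median, and those that fell in TPA 2 and 3 with an equal-variance test and the compared stages alone. Tapetum regulators numbered 0 and 1 for rises in MA, 0 and 0 for rises in TPA with the same 2 settings, 5 for falls in TPA with an equal-variance test, and 1 for rises in SCP with quantile normalization. Sporopollenin genes that rose in MA numbered 2 with an equal-variance test. Calls over all 57258 probe sets moved with the settings too. Their rises in MA numbered 1895 in the main fit and 2262 with a common median. They numbered 1977 with a variance trend and 903 with an equal-variance test.

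Same-numbered arrays of different stages did not deviate together (r of -0.06 to 0.10 over 18 pairs), so the numbers were not taken as pairs. With the replicate block the log2 fold change of OsC6 in SCP against MA was 9.80 and all calls of the 4 genes were kept, while 0 lipid transfer protein genes and 1 tapetum regulator were called higher in SCP.
No other probe set was paired with any of the 4 genes, so that alternative was not run. With 3 arrays per stage a change of 1.5 on the log2 scale was recovered in 30 of 50 simulated probe sets. Those were drawn at random from all rice probe sets, most of which lie below 10. The recovery is therefore not that of the 4 genes, whose standard errors were 0.33 to 0.64.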
